A study of Mus musculus with 8 samples.

Results

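The genes described here are 10 members of the machinery that carries a cell through G1 into S phase: the D cyclins Ccnd1, Ccnd2 and Ccnd3, the E cyclins Ccne1 and Ccne2, the kinases Cdk4, Cdk6 and Cdk2, and the pocket proteins Rb1 and Rbl1. They were chosen by symbol, all 10 stood among the 55353 rows of the count table, and all 10 passed the filter on low counts that left 13992 genes for testing. The libraries were poly(A)-selected RNA-seq of primary vascular smooth muscle cells from mouse aorta, thawed from frozen stocks and lysed in the dish. The 4 genotypes had 2 libraries each: E12 KO, its wild type E12 WT, E47 KO and its wild type E47 WT. E12 and E47 are the splice products of Tcf3, E proteins that bind E-box DNA, and the labels give neither the knockout alleles nor the age or strain of the mice. The libraries of a genotype are separate extractions. No label says that they came from separate cultures or animals, so p-values rest on the variation between extractions alone and may hold technical variation only.

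D cyclins are made in response to growth signals and bind CDK4 or CDK6. These kinases begin to phosphorylate RB, which otherwise holds E2F factors silent, and cyclin E with CDK2 completes the phosphorylation and starts DNA replication. RBL1, also called p107, is a relative of RB that binds the repressor E2Fs. In vascular smooth muscle this machinery is known for its part in the division of cells after vessel injury.

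Library totals ran from 13909230 to 27517374 counts, and the 10 genes together took between 0.272% and 0.408% of a library. Mitochondrial transcripts took 0.799% to 1.38% of counts in 6 libraries and 2.13% and 1.73% in E47 WT. Levels are given in CPM, a gene's count relative to its library's total after TMM scaling, which sets libraries to the bulk of genes they share. Tcf3 stood at 145 and 143 CPM in E12 KO, against 109 and 107 CPM in E12 WT, and at 128 and 128 CPM in E47 KO, against 94.5 and 93.7 CPM in E47 WT. A count per gene does not separate the E12 and E47 exons, so Tcf3 does not check the knockout labels.

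Smooth muscle markers were uneven. Acta2, smooth muscle actin, averaged 1638 CPM in E12 KO, 1953 CPM in E12 WT, 2108 CPM in E47 KO and 3566 CPM in E47 WT. Myh11, the smooth muscle myosin heavy chain that defines the contractile state, averaged 2.43, 7.44, 6.93 and 98.2 CPM in the same order. Myocd, a coactivator of contractile genes, went another way, at 1.66 CPM in E12 KO, 11.3 CPM in E12 WT, 12.1 CPM in E47 KO and 4.90 CPM in E47 WT. Of the 8 smooth muscle markers, 2 rose (Smtn and Lmod1) and 5 fell in E12 KO, and 1 rose (Myocd) and 7 fell in E47 KO. Markers said to rise or fall in this paragraph were past the test described below. Of all genes tested, 46.4% were past it in E12 KO and 55.2% in E47 KO, and these shares stand beside each marker list here. The 5 endothelial markers summed to between 2.07 and 8.87 CPM in the 6 libraries of E12 KO, E12 WT and E47 KO and to 450.6 and 429 CPM in E47 WT. The E47 WT sum was mostly Pecam1, Cdh5 and Vwf, at means of 202, 170 and 63.25 CPM. Tek averaged 1.38 CPM there. Kdr went the other way between the wild types and was lower in E47 WT, at 2.4 CPM, than in E12 WT. All 5 fell in E47 KO. The 4 mesothelial markers summed to 668 and 676 CPM in E12 KO, against 1075 and 971 CPM in E12 WT, and to 327 and 345 CPM in E47 KO, against 88.3 and 85.9 CPM in E47 WT. Msln went against the E12 sum, at a mean of 245 CPM in E12 KO and 205 CPM in E12 WT. Upk3b, Wt1 and Krt19 were lower in E12 KO, and all 4 were higher in E47 KO than in E47 WT. The 5 fibroblast markers summed to 47.1 and 40.9 CPM in E12 KO, against 33.3 and 29.6 CPM in E12 WT, and to 124 and 135 CPM in E47 KO, against 73.7 and 65.6 CPM in E47 WT. Among them Pdgfra averaged 21.9 CPM in E12 KO, 2.72 CPM in E12 WT, 9.07 CPM in E47 KO and 14.7 CPM in E47 WT. Ly6a averaged 15.5, 25.6, 114 and 50.3 CPM in the same order and made up most of the E47 sums. The list was split: Pdgfra, Dpt and Lum rose and Pi16 and Ly6a fell in E12 KO. Dpt, Ly6a and Lum rose and Pdgfra fell in E47 KO. Dpt and Lum rose from very few counts. Dpt had 2 and 3 counts in E12 WT and 0 and 1 in E47 WT, and averaged 0.770 CPM in E12 KO and 1.36 CPM in E47 KO. Lum had 5 and 2 counts in E12 WT and 0 and 2 in E47 WT, and averaged 4.58 CPM in E12 KO and 0.806 CPM in E47 KO. The 5 macrophage markers summed to between 1.56 and 3.69 CPM in the knockouts, 4.78 and 6.06 CPM in E12 WT and 13.9 and 15.3 CPM in E47 WT. The E47 WT sum was mostly Lyz2, at a mean of 11.9 CPM, against 0.873 CPM in E12 WT. Cd68 averaged 1.07 CPM in E47 WT and 2.89 CPM in E12 WT, and Csf1r 1.58 CPM in both. Ptprc had 0 and 1 counts in E47 WT and Adgre1 had 2 and 0, and neither gene passed the filter on low counts. Cd3e, which defines T lymphocytes, had no count in any library, where 3 counts would be 0.117 to 0.224 CPM. These markers move with the genotypes, and their part in the results below was not tested. In bulk samples, fewer cells of a type and less RNA per cell cannot be told apart.

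In E12 KO cells, Ccnd1, Ccnd2, Ccnd3, Ccne1 and Rb1 fell and Cdk4 rose. In E47 KO cells, Ccnd2, Ccnd3, Ccne1, Ccne2 and Rbl1 fell and Ccnd1 and Cdk6 rose. A gene is said to rise or fall where edgeR's quasi-likelihood test gave an adjusted p under 0.05. The 6 of 10 members past the test in E12 KO stand beside 46.4% of all genes tested (21.9% higher, 24.5% lower), and the 7 of 10 in E47 KO beside 55.2% (27.7% higher, 27.5% lower). The median log2 change of the members was -0.21 in both knockouts, against -0.01 for all genes tested in E12 KO and 0.01 in E47 KO. Without replicate 2 of E47 KO the count in E47 KO was 3, with Ccnd2, Ccne2, Cdk6 and Rbl1 no longer past the test. Scaling by library totals alone moved the median of all genes by 0.0927 in the E12 comparison and 0.156 in the E47 comparison. Under it, 59.4% of called genes were higher in E12 KO, against 47.2% under TMM, and 67.1% in E47 KO, against 50.1% under TMM.

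**Figure D1:**
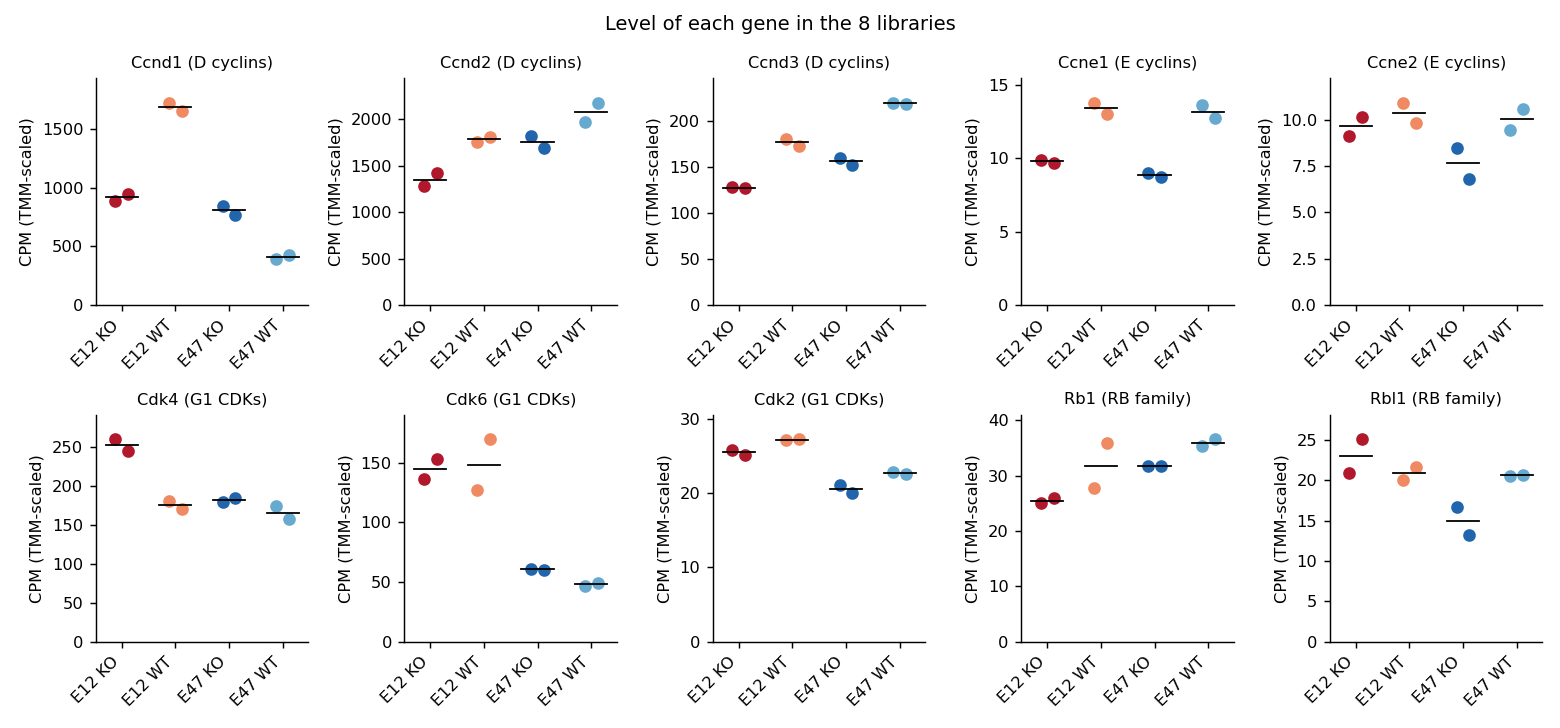
Level of each of the 10 genes in TMM-scaled CPM (linear axes from 0), with 1 point per library and a line at the mean of the 2 libraries of a genotype. Ccnd1 is lower in E12 KO than in E12 WT and higher in E47 KO than in E47 WT, Cdk4 is highest in E12 KO, and Cdk6 is higher in both E12 genotypes than in both E47 genotypes.

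Ccnd1 encodes cyclin D1, the D cyclin most tied to growth factor signals. It lies on the minus strand of chromosome 7 from 144929931 to 144939925 (GRCm38). It stood at 885 and 946 CPM in E12 KO, against 1723 and 1652 CPM in E12 WT, and at 843 and 767 CPM in E47 KO, against 389.6 and 424 CPM in E47 WT. No library of a knockout overlapped its wild type, and the knockouts lay on opposite sides of theirs. On the log2 scale Ccnd1 changed by -0.88 (SE 0.0733, adjusted p = 1.61e-07, edgeR) in E12 KO and 0.98 (SE 0.0738, adjusted p = 3.49e-08) in E47 KO. The difference of the changes was -1.87 (SE 0.104, adjusted p = 1.63e-09). Across genotypes Ccnd1 was highest in E12 WT, then E12 KO, E47 KO and E47 WT, a 4.15-fold range. The knockouts differed least, by 0.19 (adjusted p = 0.0438), which was not past the test without replicate 2 of E12 KO (0.14, adjusted p = 0.225), without replicate 2 of E47 KO (0.13, adjusted p = 0.274) or without both E47 WT libraries (0.18, adjusted p = 0.0515). Of the exon length of Ccnd1, 23.4% overlaps LTO1, which averaged 15.5 CPM in E12 KO, 27.1 CPM in E12 WT, 22.4 CPM in E47 KO and 24.6 CPM in E47 WT. The libraries kept no strand, so reads in the overlap cannot be assigned to either gene.

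Ccnd2, cyclin D2, occupies the minus strand of chromosome 6 from 127125162 to 127152193. It stood at 1278 and 1419.8 CPM in E12 KO, against 1757 and 1809 CPM in E12 WT, and at 1820.4 and 1694 CPM in E47 KO, against 1972 and 2177 CPM in E47 WT. Both knockouts lay below their wild types without overlap. On the log2 scale Ccnd2 changed by -0.40 (SE 0.0753, adjusted p = 0.000479) in E12 KO and -0.24 (SE 0.0751, adjusted p = 0.0138) in E47 KO. The E47 change was not past the test without replicate 2 of E47 KO (-0.18, adjusted p = 0.132), without replicate 2 of E47 WT (-0.17, adjusted p = 0.154) or with library totals (-0.08, adjusted p = 0.371). The difference of the changes was -0.16 (95% interval -0.39 to 0.06, adjusted p = 0.225).

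Ccnd3, cyclin D3, occupies the plus strand of chromosome 17 from 47505051 to 47599691. It stood at 128 and 127 CPM in E12 KO, against 180.1 and 173 CPM in E12 WT, and at 159.7 and 152 CPM in E47 KO, against 219 and 218 CPM in E47 WT. The libraries of a genotype lay close together and each knockout lay below its wild type. It fell by 0.47 on the log2 scale in E12 KO (SE 0.0647, adjusted p = 2.87e-05) and by 0.49 in E47 KO (SE 0.0640, adjusted p = 1.36e-05). The difference of these changes was 0.02 (95% interval -0.18 to 0.21, adjusted p = 0.89).

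Per kilobase of exon, the D cyclin transcripts summed to 338.5 and 366.3 CPM per kb in E12 KO, against 573.1 and 562.7 CPM per kb in E12 WT, and to 390.7 and 360.3 CPM per kb in E47 KO, against 317.3 and 346.4 CPM per kb in E47 WT. On this scale the sum was lower in both E12 KO libraries and higher in both E47 KO libraries than in their wild types. Summed as CPM, with no division by length, it was 2292 and 2493 in E12 KO, against 3660 and 3634 in E12 WT, and 2823 and 2613 in E47 KO, against 2581 and 2820 in E47 WT. The E12 groups stayed apart without that division, and the E47 groups overlapped. Ccnd1 made up 55.2% ± 0.488 of the sum in E12 KO, 63.1% ± 1.07 in E12 WT, 45.5% ± 0.410 in E47 KO and 26.0% ± 0.0354 in E47 WT (SD, n = 2 each). Ccnd2 made up 40.7%, 33.4%, 49.8% and 66.4% in the same order. Ccnd3 stayed between 3.54% and 7.53% of the sum in the group means. Per kilobase, Ccnd1 was thus the larger part in both E12 genotypes and Ccnd2 in both E47 genotypes, as a description with no test. The order in the E12 genotypes rests on the exon lengths used, 4709 bases for Ccnd1 and 9409 bases for Ccnd2. In CPM, Ccnd2 was above Ccnd1 in the means of all 4 genotypes, at 1349 against 916 in E12 KO and 1783 against 1687 in E12 WT.

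**Figure D2:**
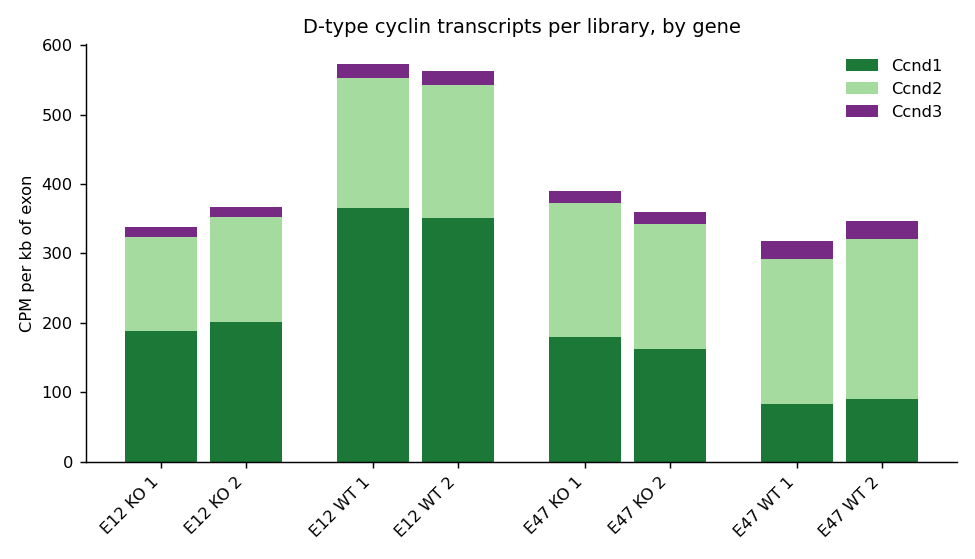
Summed level of the D cyclin transcripts in each library, in CPM per kilobase of exon (axis from 0), split into Ccnd1, Ccnd2 and Ccnd3. The sum is highest in E12 WT at 573.1 and 562.7, and the Ccnd1 part is smallest in E47 WT.

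Ccne1 and Ccne2 encode cyclins E1 and E2, the partners of CDK2. Ccne1, on the minus strand of chromosome 7 from 38097984 to 38107534, stood at 9.90 and 9.67 CPM in E12 KO, against 13.8 and 13.0 CPM in E12 WT, and at 8.99 and 8.69 CPM in E47 KO, against 13.6 and 12.8 CPM in E47 WT. Both knockouts lay below both wild types. On the log2 scale Ccne1 changed by -0.45 (SE 0.112, adjusted p = 0.00387) in E12 KO and -0.57 (SE 0.112, adjusted p = 0.000577) in E47 KO, with a difference of 0.11 (95% interval -0.23 to 0.45, adjusted p = 0.589). Ccne2, on the plus strand of chromosome 4 from 11191351 to 11204779, stood at 9.12 and 10.2 CPM in E12 KO, against 10.9 and 9.79 CPM in E12 WT, and at 8.47 and 6.82 CPM in E47 KO, against 9.46 and 10.6 CPM in E47 WT. The E12 libraries overlapped. Its change was -0.11 (adjusted p = 0.541) in E12 KO and -0.39 (SE 0.139, adjusted p = 0.0275) in E47 KO. The E47 change of Ccne2 was not past the test without replicate 2 of E47 WT (adjusted p = 0.226), without replicate 2 of E47 KO (adjusted p = 0.218), with library totals (adjusted p = 0.182) or in DESeq2 (adjusted p = 0.0878). Of the exon length of Ccne2, 17.4% overlaps Ints8, which changed by 0.37 in E12 KO and by -0.26 in E47 KO on the log2 scale.

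Cdk4, the main D cyclin kinase, lies on the plus strand of chromosome 10 from 127063534 to 127067920. It stood at 259.7 and 245 CPM in E12 KO, against 181 and 171 CPM in E12 WT, and at 179.6 and 184 CPM in E47 KO, against 174 and 157 CPM in E47 WT. The E12 KO libraries were above all 6 others. Cdk4 rose by 0.52 on the log2 scale in E12 KO (SE 0.0707, adjusted p = 2.55e-05), and its change in E47 KO was 0.14 (SE 0.0708, adjusted p = 0.115). The difference of the changes was 0.38 (SE 0.1, adjusted p = 0.00517). With library totals alone the E47 change was 0.29 and past the test (adjusted p = 0.00342). Of the exon length of Cdk4, 19.7% overlaps Tspan31, which changed by -0.20 in E12 KO (adjusted p = 0.043).

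The 250 bases before a transcription start were read from RefSeq (GRCm38.p6) and searched on both strands. One search was for the E-box, CANNTG. Within it CAGCTG was counted on its own, as was the form CAGGTG, and so was the form CACGTG. The E2F search took any of TTTCCCGC or else TTTCGCGC or else TTTGCCGC or else TTTGGCGC. Promoters were matched for 6 of the 10 genes, namely Ccnd3 (with 2 starts), Ccne1, Cdk2, Cdk4, Cdk6 and Rbl1, and not for Ccnd1, Ccnd2, Ccne2 and Rb1. The promoters of Cdk4 and Rbl1 are shown because these genes changed differently in the knockouts, with the matched motifs in capitals. Cdk4 is at chr10:127063285-127063534 on the plus strand and Rbl1 at chr2:157204535-157204784 on the minus strand.
Cdk4: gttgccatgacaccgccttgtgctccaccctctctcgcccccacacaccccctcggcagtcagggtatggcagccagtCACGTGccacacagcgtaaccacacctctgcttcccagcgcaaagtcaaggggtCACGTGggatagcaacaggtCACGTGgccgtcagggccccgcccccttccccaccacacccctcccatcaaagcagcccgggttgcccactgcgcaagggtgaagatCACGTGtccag
Rbl1: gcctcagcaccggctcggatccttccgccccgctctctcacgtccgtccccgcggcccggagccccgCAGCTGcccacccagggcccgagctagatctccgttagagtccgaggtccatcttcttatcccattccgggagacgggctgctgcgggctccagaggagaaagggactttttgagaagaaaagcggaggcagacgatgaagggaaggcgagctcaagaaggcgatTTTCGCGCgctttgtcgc
Cdk4 held 4 copies of CACGTG, the form known to be bound by MYC with MAX, starting 172, 118, 98 and 11 bases before the start site. At least 4 copies stood in 0.0213% of 32851 promoters, and at least 1 in 6.02%. Rbl1 held 1 CAGCTG and 1 TTTCGCGC, forms held by 13.0% and, for any of the E2F motifs, 1.86% of promoters. Cdk2 also held 1 CAGCTG and 1 E2F motif, and Cdk6 held 1 CACGTG. Ccne1 and both Ccnd3 starts held no CANNTG, which stood in 66.2% of promoters. A match is a run of letters and says nothing of whether a factor binds there.

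Cdk6, the other D cyclin kinase, lies on the plus strand of chromosome 5 from 3341485 to 3531008. It stood at 136 and 153 CPM in E12 KO, against 127 and 169.5 CPM in E12 WT, and at 61.2 and 60.3 CPM in E47 KO, against 46.6 and 49.6 CPM in E47 WT. The E12 libraries overlapped each other and lay far above the E47 libraries. On the log2 scale Cdk6 changed by -0.04 (SE 0.105, adjusted p = 0.812) in E12 KO and 0.33 (SE 0.113, adjusted p = 0.0214) in E47 KO. The E12 change took the other sign in 2 of the 8 fits that left out 1 library. It was -0.23 without replicate 1 of E12 WT and 0.19 without replicate 2 of E12 WT. The E47 change was not past the test without replicate 1 of E47 WT (adjusted p = 0.0977), without replicate 1 of E47 KO (adjusted p = 0.0823) or without replicate 2 of E47 KO (adjusted p = 0.0643). The difference of the changes was -0.37 (95% interval -0.70 to -0.04, adjusted p = 0.0617), and was past the test without replicate 1 of E12 WT (-0.57, adjusted p = 0.000325), without replicate 2 of E12 KO (-0.45, adjusted p = 0.0386), with library totals (-0.43, adjusted p = 0.0145) and without the filter on low counts (-0.36, adjusted p = 0.013). Per kilobase of exon, Cdk4 made up 88.2% ± 1.27 of the summed Cdk4 and Cdk6 level in E12 KO, 83.6% ± 3.33 in E12 WT, 92.8% ± 0.184 in E47 KO and 93.7% ± 0.679 in E47 WT (SD, n = 2 each).

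Cdk2, the cyclin E kinase, lies on the minus strand of chromosome 10 from 128697939 to 128705031. It stood at 25.7 and 25.2 CPM in E12 KO, against 27.1 and 27.2 CPM in E12 WT, and at 21.1 and 20.1 CPM in E47 KO, against 22.85 and 22.6 CPM in E47 WT. Each knockout lay below its wild type, by little. The change was -0.09 (95% interval -0.27 to 0.08, adjusted p = 0.378) in E12 KO and -0.14 (95% interval -0.32 to 0.04, adjusted p = 0.175) in E47 KO.

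**Figure D3:**
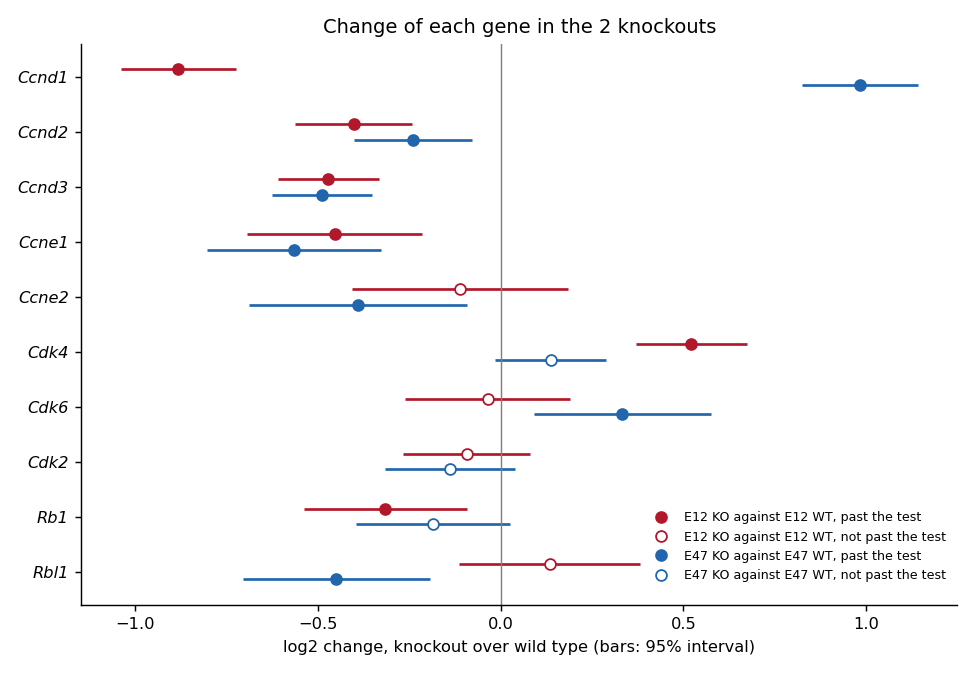
Log2 change of each of the 10 genes in E12 KO against E12 WT and in E47 KO against E47 WT, from edgeR, with 95% intervals. Ccnd1 lies at -0.88 in E12 KO and 0.98 in E47 KO, while Ccnd3 and Ccne1 lie below 0 in both.

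Rb1 encodes RB and lies on the minus strand of chromosome 14 from 73183673 to 73325822. It stood at 25.004 and 25.952 CPM in E12 KO, against 27.8 and 35.9 CPM in E12 WT, and at 31.7 and 31.7 CPM in E47 KO, against 35.4 and 36.6 CPM in E47 WT. The E12 WT libraries were far apart. The change was -0.32 (SE 0.104, adjusted p = 0.022) in E12 KO and -0.19 (SE 0.0990, adjusted p = 0.127) in E47 KO. The E12 change was not past the test without replicate 2 of E12 WT (-0.13, adjusted p = 0.372), without replicate 1 of E12 KO (adjusted p = 0.108), without replicate 2 of E12 KO (adjusted p = 0.0525) or with library totals (adjusted p = 0.0737). Lpar6 and Rcbtb2 overlap 14.9% of the exon length of Rb1. On the log2 scale Rcbtb2 changed by 0.377 in E12 KO (adjusted p = 0.00142, edgeR) and -0.305 in E47 KO (adjusted p = 0.00341). Lpar6 changed by -0.034 (adjusted p = 0.818) and 0.242 (adjusted p = 0.0639).

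Rbl1, on the minus strand of chromosome 2 from 157145893 to 157204534, stood at 20.9 and 25.1 CPM in E12 KO, against 20.0 and 21.7 CPM in E12 WT, and at 16.7 and 13.2 CPM in E47 KO, against 20.6 and 20.6 CPM in E47 WT. The E12 libraries overlapped and the E47 KO libraries were the lowest of all 8. The change was 0.13 (SE 0.116, adjusted p = 0.373) in E12 KO and -0.45 (SE 0.120, adjusted p = 0.00527) in E47 KO, and their difference was 0.58 (SE 0.167, adjusted p = 0.00944). Without replicate 2 of E47 KO, the E47 change was -0.30 (adjusted p = 0.0797) and the difference 0.44 (adjusted p = 0.0507). Besides Ccnd1, Cdk4 and Rbl1, no member had a difference of the knockout changes past the test, 3 of 10 beside 48.6% of all genes tested (22.9% higher, 25.7% lower).

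Between the wild types, Ccnd1, Cdk6 and Cdk2 were higher and Ccnd2 and Ccnd3 lower in E12 WT than in E47 WT, 5 of 10 members beside 55.4% of all genes tested (27.8% higher, 27.6% lower). The log2 difference was 2.05 for Ccnd1 (adjusted p = 5.33e-12) and 1.62 for Cdk6 (adjusted p = 9.4e-09). The count was 3 without replicate 1 of E12 WT and 3 without replicate 2 of E47 WT, where Ccnd2 and Cdk2 were not past the test. Cdk2 was also not past it without replicate 2 of E12 WT (adjusted p = 0.0518) or in DESeq2 (adjusted p = 0.106). Between the knockouts, 8 of 10 members differed, beside 52.9% of all genes tested (25.9% higher, 27.0% lower): Ccnd1, Cdk4, Cdk6, Cdk2 and Rbl1 were higher and Ccnd2, Ccnd3 and Rb1 lower in E12 KO. Rb1 (-0.32, adjusted p = 0.0173) was not past the test without replicate 1 of E12 KO (adjusted p = 0.0905), replicate 1 of E47 KO (adjusted p = 0.0744) or replicate 2 of E47 KO (adjusted p = 0.0674). Against E12 WT, E47 KO was lower in 7 of 10 members and higher in none, beside 38.1% of all genes tested (18.6% higher, 19.6% lower). That count was 4 without replicate 2 of E47 KO, where Ccne2 and Rbl1 were not past the test. Ccne2 was also lost without replicate 1 of E12 WT (adjusted p = 0.158), and Ccnd3 was not past the test in any of the 8 fits that left out 1 library. Against E47 WT, E12 KO was higher in Ccnd1, Cdk4 and Cdk6 and lower in Ccnd2, Ccnd3, Ccne1 and Rb1, 7 of 10 members beside 65.0% of all genes tested (32.5% higher, 32.5% lower). The labels do not say how many cultures or animals stand behind a genotype, so genotype and the origin of its cells cannot be told apart.

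Outside Ccnd1 and Cdk6, whose highest and lowest genotypes differed 4.15-fold and 3.08-fold, the range over genotypes was 1.32-fold for Cdk2 to 1.72-fold for Ccnd3. Neighbours in the order often did not differ past the test. For Ccnd2 and Rb1, E12 WT and E47 KO stood side by side in the middle (adjusted p = 0.856 and 0.997). For Ccne1 and Ccne2 the wild types stood side by side at the top (adjusted p = 0.815 and 0.833). Over the 8 libraries, the tested gene most like Ccnd1 was Arhgef5 (Pearson r of log2 CPM 0.998), and 177 genes had an r above 0.95. The libraries are 4 pairs of extractions, so r describes little more than the order of 4 genotypes.

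Of 56 other genes of the pathway in 7 lists, 54 were tested. The list counts below stand beside 46.4% of all genes past the test in E12 KO and 55.2% in E47 KO, and the median changes beside -0.01 and 0.01. Among the 6 CDK inhibitors tested, 1 rose and 4 fell in E12 KO (median log2 change -0.34), and 3 rose and 1 fell in E47 KO (median 0.17), 83.3% and 66.7% of the list. Cdkn2b, which encodes the CDK4 and CDK6 inhibitor p15, averaged 37.8 ± 1.63 CPM in E12 KO and 60.4 ± 7.22 CPM in E12 WT, and 53.6 ± 2.38 CPM in E47 KO and 27.0 ± 1.84 CPM in E47 WT (SD, n = 2 each). Its change was -0.68 (adjusted p = 2.06e-05) in E12 KO and 1.0 (adjusted p = 3.62e-07) in E47 KO, the same directions as Ccnd1. Cdkn1a, the p53 target p21, changed by -0.46 (adjusted p = 3.43e-05) and 0.44 (adjusted p = 3.71e-05). Cdkn2a changed by -0.21 (adjusted p = 0.0491) in E12 KO, a call lost without replicate 1 of E12 WT (adjusted p = 0.312), without replicate 2 of E12 KO (adjusted p = 0.372), without any 1 of the 4 E47 libraries (adjusted p at most 0.0676), with library totals (adjusted p = 0.286) and in DESeq2 (adjusted p = 0.0943).

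Of the 10 E2F and DP factors, 1 rose and 3 fell in E12 KO (median -0.15) and 5 fell in E47 KO (median -0.21). These are 40.0% and 50.0% of the list, near the 46.4% and 55.2% of all genes. Tfdp2, a DP partner of E2F, fell by 0.94 in E12 KO (adjusted p = 7.43e-07), and E2f8, an E2F repressor, fell by 0.72 in E47 KO (adjusted p = 0.00313). The E47 count was 3 without replicate 2 of E47 WT, without replicate 1 of E47 KO and without replicate 2 of E47 KO. Of the 7 p130 and MuvB partners, subunits of the DREAM repressor and of the related MYBL2 complex, 3 rose and 1 fell in E12 KO (median 0.13) and 2 fell in E47 KO (median -0.07), 57.1% beside 46.4% of all genes and 28.6% beside 55.2%. The E47 count was 1 without replicate 2 of E47 KO. Lin52 changed by -0.46 (adjusted p = 0.016) in E12 KO, a call lost without replicate 1 of E12 WT (adjusted p = 0.155) and without replicate 1 of E12 KO (adjusted p = 0.13), and by -0.48 (adjusted p = 0.00516) in E47 KO. Its E12 call was also lost in DESeq2 (adjusted p = 0.0691) and with library totals (adjusted p = 0.0512).

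Of the 4 tested cyclins and kinase of S, G2 and M phase, 1 rose and 1 fell in E12 KO and 3 fell in E47 KO, 50.0% beside 46.4% of all genes and 75% beside 55.2%. Ccna2, cyclin A2, averaged 48.1 ± 0.175 CPM in E12 KO and 38.3 ± 2.92 CPM in E12 WT, and 19.8 ± 0.203 CPM in E47 KO and 31.4 ± 1.09 CPM in E47 WT (SD, n = 2 each). Its change was 0.32 (adjusted p = 0.00313) in E12 KO and -0.66 (adjusted p = 1.06e-05) in E47 KO, the opposite of the Ccnd1 directions. The fall of Cdk1 in E12 KO (-0.27, adjusted p = 0.0183) was lost without replicate 1 of E12 WT (adjusted p = 0.137), replicate 1 of E12 KO (adjusted p = 0.0864) or replicate 2 of E12 KO (adjusted p = 0.0676), and the E12 count was then 1. Among the 4 genes of the CDK-activating kinase and CDC25A, Ccnh, the cyclin of that kinase, fell by 1.05 in E12 KO (adjusted p = 2.44e-08) and rose by 0.83 in E47 KO (adjusted p = 1e-06). In that list 2 fell in E12 KO and 2 rose in E47 KO, 50.0% in each, near the 46.4% and 55.2% of all genes, and the E47 count was 1 without replicate 1 or 2 of E47 WT or replicate 1 of E47 KO.

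Of the 8 genes of cyclin and inhibitor turnover, 1 rose and 1 fell in E12 KO and 1 rose and 3 fell in E47 KO, 25% beside 46.4% of all genes and 50.0% beside 55.2%. Gsk3b, a kinase that marks cyclin D1 for degradation, averaged 172 ± 13.7 CPM in E12 KO and 153 ± 22.7 CPM in E12 WT, and 167 ± 6.17 CPM in E47 KO and 280.3 ± 19.3 CPM in E47 WT (SD, n = 2 each). It fell by 0.75 in E47 KO (adjusted p = 8.43e-06). Of the 15 E2F-driven S phase genes, 3 rose and 4 fell in E12 KO (median 0.06), and 5 rose and 5 fell in E47 KO (median -0.09), 46.7% beside 46.4% of all genes and 66.7% beside 55.2%. The E47 count of 10 was 6 without replicate 1 of E47 KO. Mcm6 and Mcm7, subunits of the replicative helicase, rose in both: Mcm6 by 0.69 and 0.32 and Mcm7 by 0.35 and 0.53 in E12 KO and E47 KO (adjusted p = 1.51e-06, 0.00217, 0.00103 and 2.83e-05). Mcm4, another subunit, was not past the test in E12 KO and fell in E47 KO, at 48.5 CPM against 63.6 CPM in E47 WT. Rrm2 fell in both knockouts. It averaged 38.6 CPM in E12 KO, against 48.7 CPM in E12 WT, and 32.4 CPM in E47 KO, against 54.4 CPM in E47 WT. All 15 S phase genes were lower in E47 KO than in E12 WT, beside 19.6% of all genes, and 13 of 15 were higher in E12 KO than in E47 KO, beside 25.9%. Between the wild types, 11 of 15 were higher in E12 WT than in E47 WT, beside 27.8%, so E12 and E47 cells differed in these genes without a knockout.

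**Figure D4:**
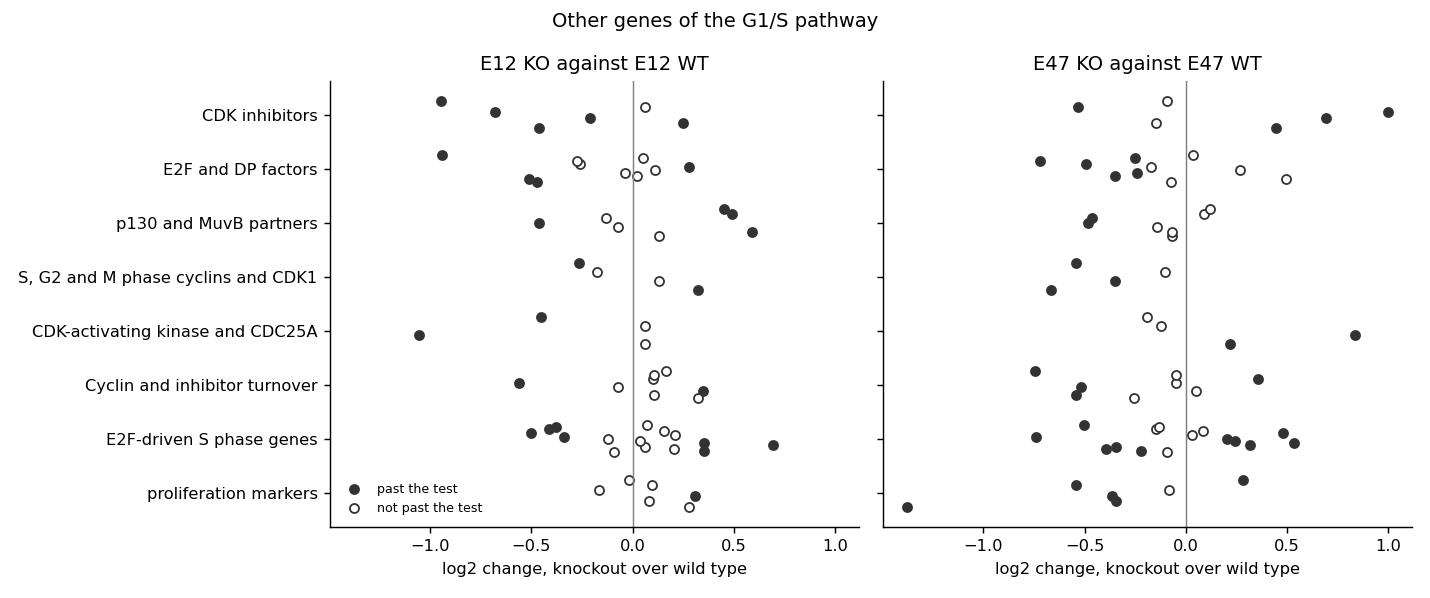
Log2 change of each tested gene of the other pathway lists and of the proliferation markers, in E12 KO against E12 WT (left) and E47 KO against E47 WT (right), with filled points past the test. The S phase genes lie on both sides of 0 in both panels.

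Proliferation markers summed to 472 and 567 CPM in E12 KO, against 432 and 517 CPM in E12 WT, and to 219.7 and 212 CPM in E47 KO, against 327 and 321 CPM in E47 WT. Mki67 averaged 170 ± 32.9 CPM in E12 KO and 141 ± 44.5 CPM in E12 WT, and 42.3 ± 0.455 CPM in E47 KO and 109.9 ± 7.31 CPM in E47 WT (SD, n = 2 each). Of the 6 markers, 1 rose in E12 KO and 1 rose and 4 fell in E47 KO, 16.7% beside 46.4% of all genes and 83.3% beside 55.2%. The E47 count of 5 was 3 without replicate 2 of E47 WT. The E12 count of 1 was 0 without replicate 1 of E12 WT or replicate 2 of E12 KO and 2 without replicate 2 of E12 WT or replicate 1 of E12 KO.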

How the data were processed

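RNA from 8 extractions of mouse aortic smooth muscle cells was sequenced without keeping strand, per the labels' protocols. The submitters' processing notes name FastQC, HISAT, featureCounts and the build GRCm38. No tool version, setting or annotation accompanies them (not given in the sources used here). What was deposited are raw counts per gene, with 1 column per library and no normalization by the authors. Counts were tested with edgeR 4.0.16 in R 4.3.3: filterByExpr left 13992 genes, libraries were scaled by TMM, 1 model held the 4 genotypes, with quasi-likelihood F tests of its contrasts (common biological coefficient of variation 0.0598, 4 residual degrees of freedom). Besides these 4, the tests and intervals used prior degrees of freedom estimated over all genes. An SE is the size of the log2 change divided by the square root of its F value. P-values were adjusted by Benjamini-Hochberg over all genes tested. The procedure was tested on simulated data in which few genes changed, and only in E12 KO. Far more genes were called in these data, so the simulation does not check the calls under such wide change. Replicates of a genotype correlated at 0.995 to 0.997 and differed by more than sampling noise. The E12 WT pair differed most, by a root mean square of 0.258 in log2 CPM, against 0.204 to 0.221 in the other genotypes. Positions, exon lengths and overlaps came from GENCODE M21 (GRCm38).

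Alternatives were RLE size factors, library totals, DESeq2 1.42.0, other filters, only the groups compared, and each library left out in turn. Leaving out both E47 WT libraries, and comparing E12 KO with E47 WT to order the levels, were chosen after seeing the data. The members, gene lists, tests and alternatives were chosen with earlier results of these data known. Named were all members, Tcf3, up to 4 genes per pathway list with the lowest p in either knockout, marker levels, and the 3 genes most correlated with a member. A few genes these rules took are not reported here. The limit of 3 counts covers counting error only.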

Additional observations from a re-analysis of the deposited data

Results flagged for a closer look

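For 3 of the 10 genes the change in E12 KO and the change in E47 KO differed, by edgeR's test of the difference itself. On the log2 scale, E12 minus E47, it was -1.87 for Ccnd1 (adjusted p = 1.63e-09), 0.385 for Cdk4 (adjusted p = 0.00517) and 0.583 for Rbl1 (adjusted p = 0.00944). Ccnd1 fell in E12 KO and rose in E47 KO. The Rbl1 difference was not past the test without replicate 2 of E47 KO.

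Some named genes of the pathway lists were marked by the same test, and only these are given. They had been picked for a low p in either knockout comparison, from which the difference is built. How many were marked is thus no result about the lists. Among the CDK inhibitors the difference was -1.68 for Cdkn2b (adjusted p = 6.39e-08), -0.851 for Cdkn2d (adjusted p = 0.000257), -0.905 for Cdkn2a (adjusted p = 2e-05) and -0.907 for Cdkn1a (adjusted p = 1.23e-06). Among the E2F and DP factors it was -0.98 for Tfdp2 (adjusted p = 1.83e-05), -0.404 for E2f1 (adjusted p = 0.0101) and 0.368 for E2f3 (adjusted p = 0.0212). Among the p130 and MuvB partners it was 0.4 for Rbbp4 (adjusted p = 0.0021) and 0.657 for Lin9 (adjusted p = 0.0142). Among the later cyclins it was 0.989 for Ccna2 (adjusted p = 5.51e-06) and 0.48 for Ccnb1 (adjusted p = 0.00461), and for the cyclin of the CDK-activating kinase it was -1.89 for Ccnh (adjusted p = 3.31e-09). Among the turnover genes it was 0.91 for Gsk3b (adjusted p = 4.85e-05), 0.651 for Cks1b (adjusted p = 0.000709), -0.512 for Fbxo4 (adjusted p = 0.0138) and 0.299 for Cul1 (adjusted p = 0.0285). Among the S phase genes it was 0.378 for Mcm6 (adjusted p = 0.00692), 0.403 for Rrm2 (adjusted p = 0.0353) and 0.596 for Mcm4 (adjusted p = 0.00062). The differences of E2f1, E2f3, Lin9, Fbxo4, Cul1 and Rrm2 were each lost without at least 1 library, with adjusted p up to 0.0615 for E2f1, 0.121 for E2f3, 0.0565 for Lin9, 0.0793 for Fbxo4, 0.165 for Cul1 and 0.177 for Rrm2. Across all genes tested, 48.6% had a difference past the test.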

How the results depend on the processing

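Of 860 recomputed log2 values of the 10 genes, 785 kept their direction and side of the threshold, 47 were no longer past the test, 8 became so and 20 changed sign. Counts of members called stayed within 1.5 times in 82 of 86 recomputations. Leaving out 1 library, the count was 5 to 7 in E12 KO, 3 to 7 in E47 KO, 3 to 5 between the wild types and 4 to 6 for E47 KO against E12 WT. Values that changed sign follow. For Rb1 in E47 KO against E12 WT, the value was -0.00403 with RLE and -0.00661 in DESeq2. With library totals it was 0.0605 for Cdk6 in E12 KO, 0.0175 for Cdk2 in E47 KO, -0.0455 for Ccnd3 and -0.0177 for Cdk2 in the difference of the changes, and 0.063 for Ccnd2 in E47 KO against E12 WT. Leaving out 1 library, ranges were -0.232 to 0.185 for Cdk6 in E12 KO, -0.0196 to 0.0524 for Ccnd3 and -0.311 to 0.0598 for Rb1 in the difference. Between the wild types they were -0.0213 to 0.0746 for Ccne1, -0.044 to 0.134 for Ccne2 and -0.0377 to 0.0761 for Rbl1. For E47 KO against E12 WT they were -0.0712 to 0.0302 for Ccnd2 and -0.181 to 0.189 for Rb1. The cause was not tested. Called genes higher in E47 KO than in E12 WT were 61.9% with library totals, against 48.7% with TMM. Of 336 pathway list counts, 30 moved by more than 1.5 times. Without both E47 WT libraries, the E12 count was still 6. No paired analysis was possible because the labels give the genotypes no shared replicate numbers.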
